A study of Mus musculus with 6 samples.

Results

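The 10 genes described here encode chaperones, folding enzymes and stress regulators of the endoplasmic reticulum (ER): Calr, Canx, Hspa5, Hsp90b1, Pdia3, Pdia4, Pdia6, P4hb, Xbp1 and Ddit3. They were chosen by symbol, were 10 of the 24520 genes in the table, and all 10 passed the filter on low values. RNA was measured in 6 libraries of endothelial cells, which line blood and lymph vessels, sorted by flow cytometry from lungs of wild-type (wt) mice. The 3 libraries labelled Aged came from mice 18 months old and the 3 labelled mAdu from mice 8 months old, with no treatment other than age in the labels. The 18-month libraries are called older and the 8-month libraries younger. Whether each library is a mouse of its own is not in the labels, and the p-values therefore rest on the spread among libraries, part of which may be technical. Levels are TPM, a transcript abundance that is relative to the length of the transcript and to the library's total. The depth of each library is unknown.

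Proteins that are secreted or inserted into membranes fold in the ER. Lectin chaperones hold newly made glycoproteins, heat shock chaperones hold exposed hydrophobic stretches, and disulfide isomerases form and shuffle disulfide bonds. When unfolded proteins accumulate, the sensors IRE1, PERK and ATF6 raise the transcription of these genes through the transcription factors XBP1, ATF4 and cleaved ATF6. Endothelial cells secrete large amounts of matrix and coagulation proteins, among them von Willebrand factor, which is rich in disulfide bonds.

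The ER stress response element (ERSE) consists of CCAAT, 9 bases of any kind and CCACG, and ATF6 and XBP1 bind it together with NF-Y. It was searched on both strands of RefSeq promoters (GRCm38.p6, 250 bases before to 50 after each gene's start), where all 10 genes had an entry. It was found in the promoters of 5 of the 10 genes and in 0.119% of 32851 promoters of the same length. The element is known from genes of ER stress, so its share among the 10 is not an independent result. The 6 sites are shown in the direction of the motif, 5′ to 3′. Fixed letters are in capitals, with 5 flanking bases on each side. These letters are shared by 5 of the 10 genes whose levels are compared below.
Calr, chr8:84847070-84847098, motif on the strand opposite to the gene: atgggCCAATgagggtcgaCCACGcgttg
Canx, chr11:50325795-50325823, motif on the gene's strand: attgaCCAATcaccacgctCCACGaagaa
Hspa5, chr2:34772020-34772048, motif on the gene's strand: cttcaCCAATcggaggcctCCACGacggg
Hsp90b1, chr10:86705633-86705661, motif on the gene's strand: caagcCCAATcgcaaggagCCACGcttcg
Hsp90b1, chr10:86705528-86705556, motif on the strand opposite to the gene: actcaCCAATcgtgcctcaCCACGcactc
Pdia6, chr12:17266486-17266514, motif on the gene's strand: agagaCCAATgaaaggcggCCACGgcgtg
A shortened form that ends in CCA in place of CCACG, and so includes every full site, was found in 7 of the 10 promoters, adding Pdia3 and Pdia4, and in 1.09% of all. The second element ERSE-II (ATTGG, 1 base of any kind and CCACG), the XBP1 core TGACGTGG and the ATF4 element TTGCATCA were found in 0 of the 10 windows and in 0.0365%, 0.676% and 0.895% of all. A match of letters is a description of these windows and does not show that a factor was bound.

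Between 8 and 18 months, Calr, Hsp90b1 and Pdia4 lay higher in every 18-month library than in any 8-month library, and Xbp1 and P4hb lay lower. No member passed the test, so none is called changed. By mean TPM, Calr was 1.45-fold, Hsp90b1 1.27-fold and Pdia4 1.15-fold of its 8-month level, while Xbp1 was 1.46-fold and P4hb 1.096-fold lower. Canx, Hspa5, Pdia3, Pdia6 and Ddit3 overlapped between the ages.

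In limma's moderated test on log2(TPM + 1), with Benjamini-Hochberg adjustment over all 12748 genes whose mean reached 1 TPM, 0 of the 10 members passed 0.05, and 0.0235% of all tested genes did (0.00784% higher and 0.0157% lower). Their adjusted p lay between 0.137 (Calr) and 0.964 (Ddit3). At an unadjusted p under 0.05, 3 members were higher (Calr, Hsp90b1, Pdia6) and 1 was lower (Xbp1), 4 of 10 in all against 13.4% of all tested genes, of which 3.45% were higher and 9.99% lower. The ages did not overlap in 5 of the 10 members, 3 higher and 2 lower, against 18.7% of all tested genes, 4.48% higher and 14.2% lower. The median log2 difference of the members was -0.00067, beside -0.08 over all tested genes. Of the members 5 were higher and 5 lower, where 33.8% of all tested genes were higher. That split depended on the scaling. It was 8 and 2 with median-of-ratios scaling (51.7% of all tested genes higher), 7 and 3 with quantile normalization (49.3%), and 7 and 3 after GC content and length were corrected for (53.4%). In each of these settings 0 members passed the adjusted threshold.

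**Figure D1:**
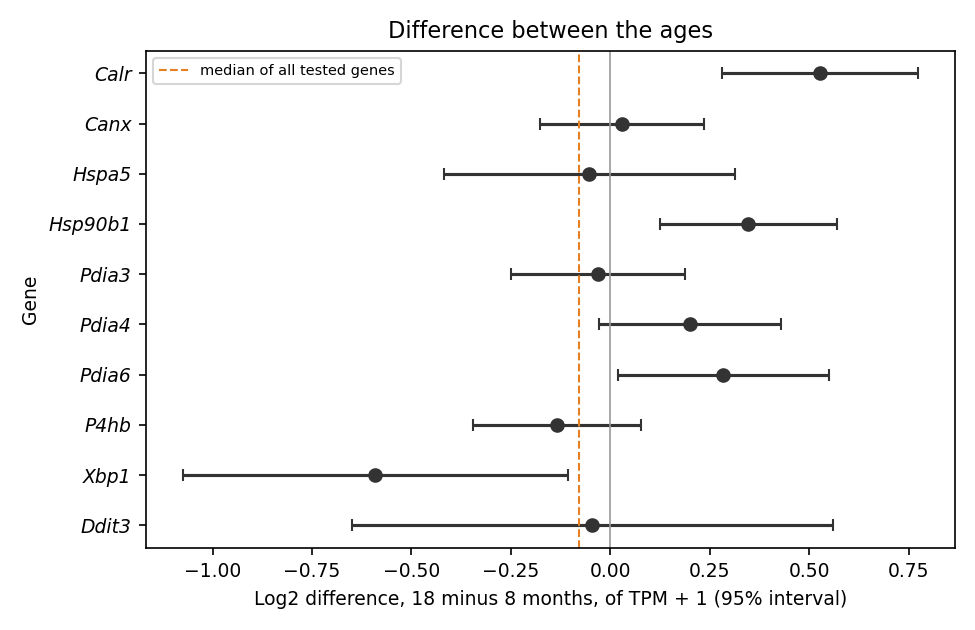
Log2 difference between 18 and 8 months on the log2(TPM + 1) scale (horizontal axis) for each of the 10 genes (vertical axis), as points with 95% intervals from limma, n = 3 libraries per age. The intervals of Calr, Hsp90b1 and Pdia6 lie above 0 and that of Xbp1 below it, and the dashed line is the median of all tested genes, -0.08.

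All 10 genes were well expressed. The summed level of the 10 was between 2887 and 3268 TPM per library, 0.330% to 0.375% of the table's total. By mean TPM over the 6 libraries the order was Pdia3 (570 TPM), Hspa5 (519 TPM), Hsp90b1 (411 TPM), P4hb (369.8 TPM), Pdia6 (364 TPM), Calr (269.9 TPM), Canx (198 TPM), Pdia4 (177 TPM), Xbp1 (148 TPM) and Ddit3 (44.7 TPM). Of the 9 neighbouring pairs in this order, 7 overlapped in their ranges over the libraries, and the pairs Calr and Canx and Xbp1 and Ddit3 did not. Within each library Pdia6 was above Calr and Canx above Pdia4 in 6 of 6 libraries, while Pdia3 exceeded Hspa5 in 4. Ddit3 had a higher mean than 75.8% of all tested genes and Pdia3 than 98.4%.

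**Figure D2:**
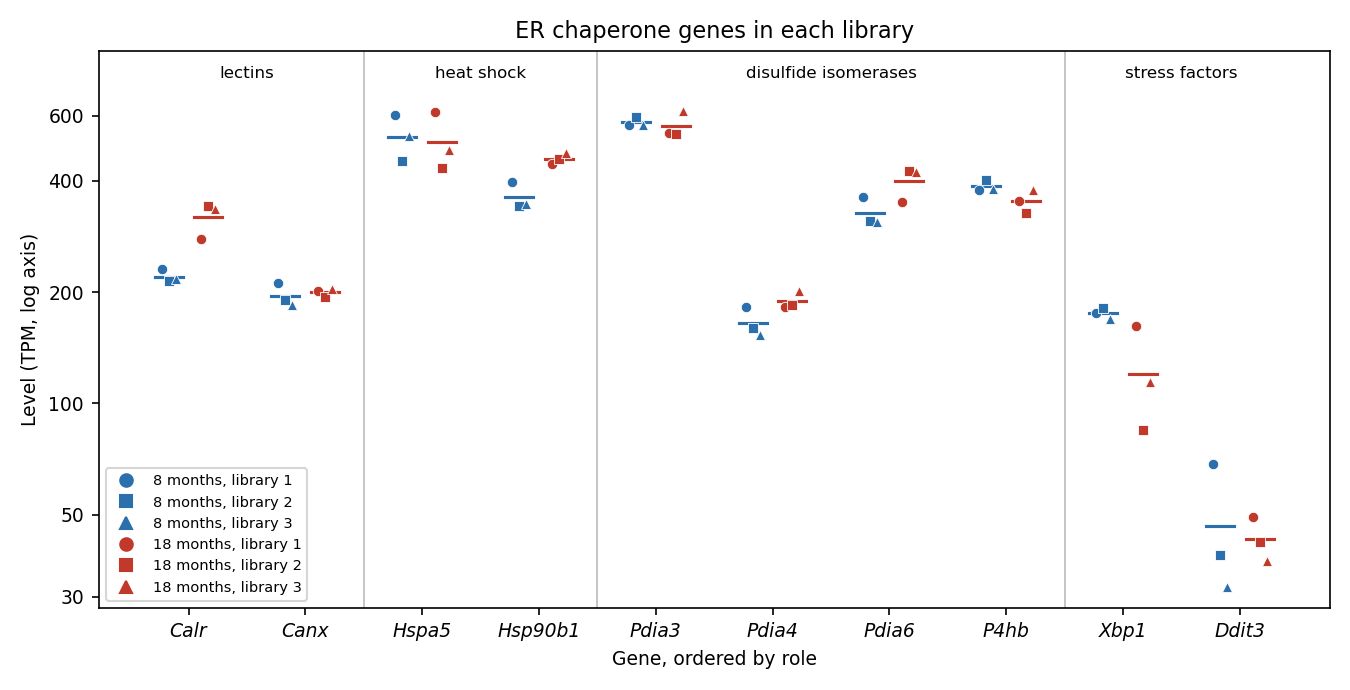
Level in TPM on a log axis for the 10 genes, grouped by role, in each 8-month (blue) and 18-month (red) library. Symbols give the replicate number and lines the mean of an age: Calr separates the ages most widely among the lectins, and the 18-month libraries of Xbp1 spread from 84.5 to 162 TPM.

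Among the lectin chaperones, calreticulin (Calr, ENSMUSG00000003814, chromosome 8, 84841850 to 84846934 on GRCm38) is the soluble, calcium-binding form, and calnexin (Canx, ENSMUSG00000020368, chromosome 11, 50293961 to 50325673) is its membrane-anchored relative. Values run from library 1 to 3 of each age. Calr read 279, 343 and 336 TPM in the older libraries and 231, 214 and 217 TPM in the younger. All 18-month libraries were above all 8-month libraries, and libraries 2 and 3 stood highest. The means were 319 ± 35.4 TPM (SD, n = 3) and 220.4 ± 8.87 TPM, and the log2 difference was 0.53 ± 0.11 (SE; 95% interval 0.28 to 0.77; limma adjusted p = 0.137). This was the smallest p of the members. With library weights, which give less weight to libraries that vary more, Calr was the sole member to pass (log2 difference 0.58, limma adjusted p = 0.042). That setting called 94 of the 12748 genes in place of 3, and over all 20 alternatives its adjusted p ranged from 0.042 to 0.342.

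Canx read 201, 194 and 204 TPM in the older libraries and 211, 191 and 185 TPM in the younger. The ages overlapped, and all libraries lay between 185 and 211 TPM. The log2 difference was 0.03 (95% interval -0.18 to 0.24; limma adjusted p = 0.927). The ratio of Calr to Canx within a library does not depend on the library's total. It was 1.39, 1.77 and 1.65 in the older and 1.09, 1.12 and 1.17 in the younger libraries, without overlap. The ratios between members were formed after the levels were seen, so no test is given. Both promoters hold 1 full ERSE site, shown above.

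Calreticulin and the isomerase encoded by Pdia3 also take part in loading peptides onto MHC class I molecules. Of the 6 listed loading genes, 3 were higher and 3 lower, 0 passed limma's adjusted threshold and 0 had an unadjusted p under 0.05. The split was 5 and 1 with median-of-ratios scaling, and 6 and 0 after levels were corrected for GC content and length, with a median of 0.13. Tap1, a subunit of the peptide transporter, lay at 127, 270.4 and 134 TPM in the older libraries and 108, 102 and 118 TPM in the younger. B2m, the light chain of class I, lay at 10612, 15049 and 11054 TPM in the older libraries and 9936, 7862 and 9646 TPM in the younger. These 2 of the 6 genes were higher without overlap between the ages, beside 4.48% of all tested genes. Both were highest in the second 18-month library. Calr was also highest there, but close to its level in the third (343 and 336 TPM). Tapbp, the tapasin that holds calreticulin and the Pdia3 product at the transporter, was at 469 ± 23.6 and 495 ± 55.9 TPM at 18 and 8 months (SD, n = 3).

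The heat shock chaperones are BiP (Hspa5, ENSMUSG00000026864, chromosome 2, 34771970 to 34777547), the Hsp70 of the ER and the classical marker of ER stress, and Grp94 (Hsp90b1, ENSMUSG00000020048, chromosome 10, 86690209 to 86705509), its Hsp90. Hspa5 read 613, 434 and 484 TPM in the older libraries and 602, 452 and 528 TPM in the younger. The ages overlapped across their whole range, and the first library of each age was the highest. The log2 difference was -0.05 (95% interval -0.42 to 0.31; limma adjusted p = 0.928). Its sign changed in 5 of 20 alternatives, so no direction is given.

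Hsp90b1 read 445, 459.5 and 475 TPM in the older libraries and 398, 341 and 347 TPM in the younger. The 18-month libraries lay together above all 8-month libraries. The means were 459.7 ± 14.9 and 362 ± 31.6 TPM (SD, n = 3), and the log2 difference was 0.35 ± 0.10 (SE; 95% interval 0.12 to 0.57; limma adjusted p = 0.195). Over all 20 alternatives it stayed between 0.31 and 0.44. The ratio of Hsp90b1 to Hspa5 was 0.726, 1.06 and 0.980 in the older and 0.661, 0.755 and 0.656 in the younger libraries, so it overlapped in the first 18-month library. The promoter of Hspa5 holds 1 full ERSE site and that of Hsp90b1 holds 2, shown above.

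The disulfide isomerases share thioredoxin-like domains. Pdia6 (ENSMUSG00000020571, chromosome 12, 17266545 to 17284770), which encodes P5, read 352, 426 and 422 TPM in the older libraries and 362, 312 and 309 TPM in the younger. The first libraries of the ages overlapped, and the others did not. The log2 difference was 0.28 (95% interval 0.02 to 0.55; limma adjusted p = 0.338). Pdia4 (ENSMUSG00000025823, chromosome 6, 47796141 to 47813430), which encodes ERp72, read 183, 185 and 201 TPM in the older libraries and 182, 160.4 and 153 TPM in the younger. The gap between the ages was narrow, with the first 18-month library at 182.5 TPM and the first 8-month library at 181.9 TPM. The log2 difference was 0.20 (95% interval -0.03 to 0.43; limma adjusted p = 0.442).

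Pdia3 (ENSMUSG00000027248, chromosome 2, 121413775 to 121438687) encodes ERp57, which works with the lectins on glycoproteins. It read 541, 537 and 617 TPM in the older libraries and 565.5, 596 and 567 TPM in the younger, and the ages overlapped (log2 difference -0.03, 95% interval -0.25 to 0.19; limma adjusted p = 0.928). Its sign changed in 6 of 20 alternatives. P4hb (ENSMUSG00000025130, chromosome 11, 120560298 to 120573253) encodes protein disulfide isomerase itself, also the beta subunit of collagen prolyl 4-hydroxylase. It read 353, 328 and 378 TPM in the older libraries and 379, 401 and 379.98 TPM in the younger. The gap between the ages was again small, from 378.1 to 379.2 TPM. The log2 difference was -0.13 (95% interval -0.35 to 0.08; limma adjusted p = 0.577), and it was -0.0020 once GC content and length were corrected for.

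Xbp1 (ENSMUSG00000020484, chromosome 11, 5520659 to 5525893) encodes the transcription factor that IRE1 activates by splicing its mRNA. The gene level adds up both mRNA forms and does not show how much was spliced. Xbp1 read 162, 84.5 and 115 TPM in the older libraries and 176, 181 and 169.8 TPM in the younger. The 8-month libraries lay close together, and the 18-month libraries spread below them, with the second the lowest. The means were 120.3 ± 39.0 and 176 ± 5.55 TPM (SD, n = 3), and the log2 difference was -0.59 ± 0.21 (SE; 95% interval -1.07 to -0.11; limma adjusted p = 0.283). Without the second 18-month library the log2 difference was -0.36. Xbp1 had a within-age SD of 0.33 on the log2 scale, beside a median of 0.19 over all tested genes.

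The summed level of the listed immediate early genes, which tissue dissociation is known to induce, was also lowest in that library. Jun read 267, 102 and 217 TPM in the older libraries and 263, 506 and 432 TPM in the younger, and Dusp1 read 259, 99.6 and 145 TPM against 282, 441 and 298 TPM. Over all 9 it was 1858 to 3381 TPM in the older and 2719 to 3442 TPM in the younger libraries. Their part in the Xbp1 values was not tested. Plasma cells, which express Xbp1 strongly, had few transcripts: Mzb1 lay at 0.399 to 1.47 TPM and Jchain at 1.87 to 7.15 TPM over the 6 libraries. The 9 measured of 12 listed B and plasma cell markers summed to 17.05 to 26.8 TPM in the older libraries and 20.1 to 57.5 TPM in the younger, with none at 0 in all libraries. Of the 7 tested markers, 1 was higher and 6 lower, with a median log2 difference of -0.58. Without the third younger library it was -0.21, with 2 higher and 4 lower. The part of these cells in the Xbp1 values was not tested.

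Ddit3 (ENSMUSG00000025408, chromosome 10, 127290774 to 127296288) encodes CHOP, the ATF4-induced factor linked to cell death in prolonged ER stress. It read 49.2, 42.2 and 37.4 TPM in the older libraries and 68.7, 38.9 and 32.0 TPM in the younger. The highest and the lowest value both came from 8-month libraries, and the first library was the highest in each age. The log2 difference was -0.05 (95% interval -0.65 to 0.56; limma adjusted p = 0.964), the widest interval of the members. It was 0.27 without the first 8-month library, and its sign changed in 5 of 20 alternatives. Its exons share 68 bases with those of Mars on the opposite strand, and Mars lay at 15.7 to 22.9 TPM. The ratio of Xbp1 to Ddit3 was 3.29, 2.004 and 3.06 in the older and 2.56, 4.65 and 5.31 in the younger libraries, and it overlapped.

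**Figure D3:**
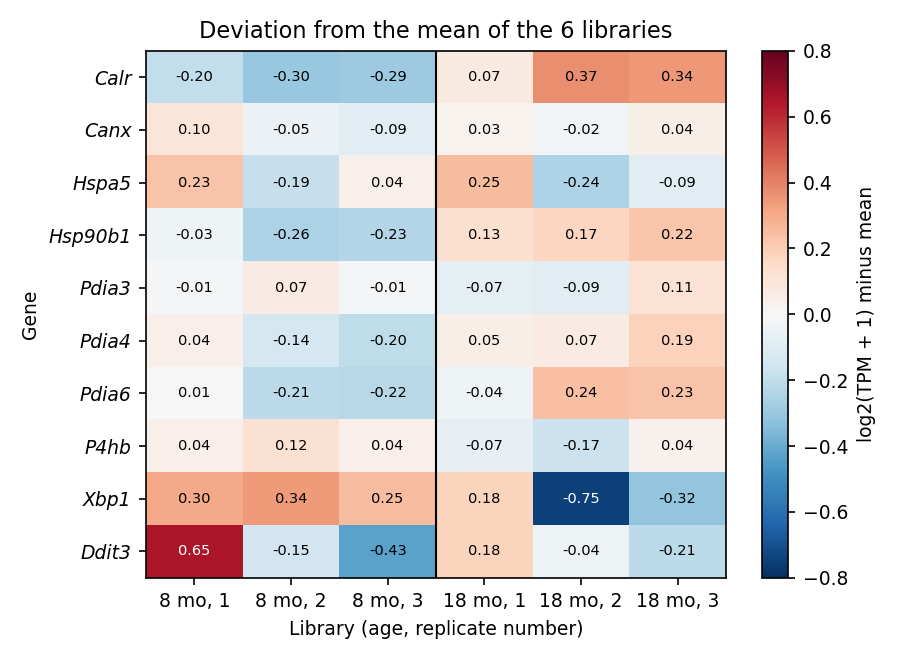
Deviation of each gene (rows) in each library (columns, age and replicate number) from its mean over the 6 libraries in log2(TPM + 1). Calr and Hsp90b1 are below their mean in every 8-month library and above it in every 18-month library, Xbp1 is lowest in the second 18-month library, and Hspa5 and Ddit3 are highest in library 1 within each age.

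The first library of each age also had the highest summed level of chaperones outside the ER. Hspa8, the constitutive cytosolic Hsp70, lay at 3096, 1552 and 1581 TPM in the older libraries and 3331, 1860 and 1623 TPM in the younger. Hsp90aa1 lay at 174, 86.1 and 101 TPM and at 128, 89.4 and 90.3 TPM. The 14 listed chaperones outside the ER summed to 5375 and 5479 TPM in the first libraries of the 18- and 8-month groups and to 3100 to 3457 TPM in the other 4. The order differed for Hspa1a, the inducible Hsp70, with 109, 8.60 and 26.6 TPM in the older libraries and 47.1, 77.7 and 43.8 TPM in the younger. Leaving out both first libraries, an alternative chosen after these values were seen, gave log2 differences of 0.65 for Calr, 0.44 for Hsp90b1, 0.45 for Pdia6, 0.30 for Pdia4 and -0.83 for Xbp1. All 5 were larger in size than with all libraries, and limma's adjusted p lay between 0.132 and 0.279. The labels give no batch. Over all tested genes the first libraries of the ages correlated at -0.0118 in their deviations from the mean of their age. The part of these library differences in the members' values was not tested.

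**Figure D4:**
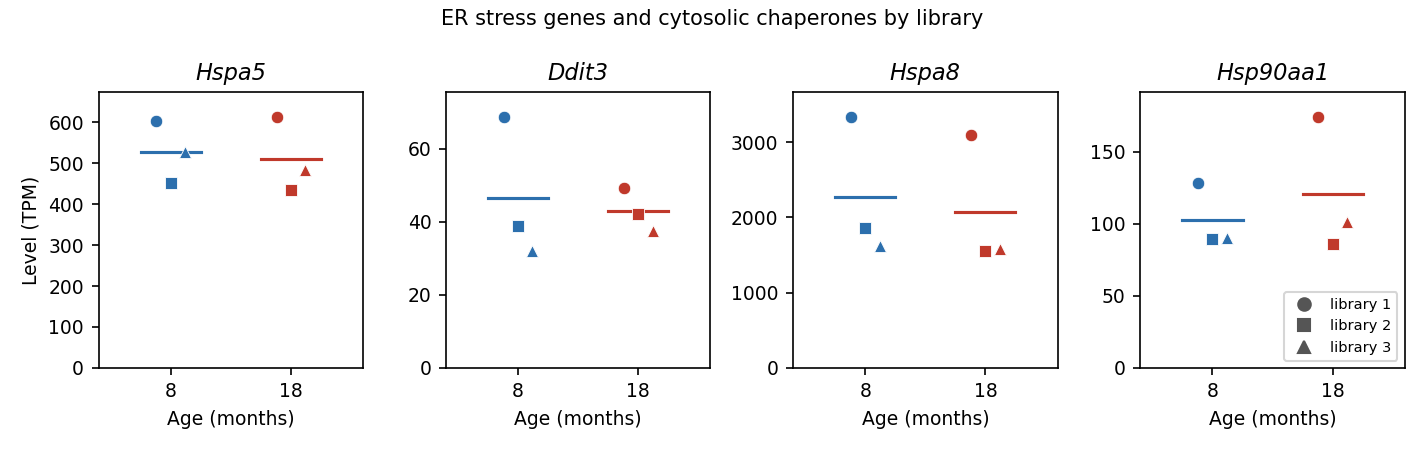
Levels in TPM (vertical axes from 0) of Hspa5 and Ddit3 and of the cytosolic chaperones Hspa8 and Hsp90aa1 by age, with symbols for the replicate number and lines for the mean of an age. Library 1 is the highest of its age in all 4 panels, for example 3331 and 3096 TPM for Hspa8.

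The other genes of ER folding and stress did not pass the test either. The 11 lists held 125 tested genes that are not members, of which 0 passed limma's adjusted threshold, 33 were higher and 92 lower. Counted by an unadjusted p under 0.05, 0 lay higher and 21 lower, beside 3.45% and 9.99% of all tested genes. After the GC and length correction 8 lay higher and 8 lower, beside 6.81% and 5.85% of all tested genes. The ages did not overlap in 3 higher and 26 lower genes, beside 4.48% and 14.2% of all tested genes. Their median log2 difference was -0.11, near the -0.08 of all tested genes. The split moved with the scaling, and so did the share of all tested genes that were higher, 33.8% in the main fit. With median-of-ratios scaling the split was 54 higher and 71 lower, beside 51.7% of all tested genes higher. With quantile normalization it was 51 and 74, beside 49.3%. After GC content and length were corrected for it was 61 and 64, beside 53.4%, and the median of all genes was 0.02.

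The sensors of ER stress had 1 higher and 6 lower genes, with a median of -0.18 (0.04 after that correction, with 4 higher and 3 lower). Ern1, which encodes IRE1, the enzyme that splices Xbp1 mRNA, lay at 4.29, 2.65 and 3.09 TPM in the older libraries and 4.38, 5.20 and 6.51 TPM in the younger. Its order within the 18-month libraries was the same as that of Xbp1, but Hspa5, Jun and Dusp1 had this order too. The ages did not overlap in Ern1 (limma adjusted p = 0.308). Atf6b, a relative of ATF6, lay at 25.1 ± 4.402 TPM in the older libraries and 36.8 ± 4.59 TPM in the younger (SD, n = 3). Atf6 lay at 18.3 ± 1.98 and 19.8 ± 0.875 TPM, and Eif2ak3, which encodes PERK, at 8.31 ± 0.356 and 8.46 ± 0.517 TPM. Atf4, whose protein drives Ddit3, lay at 254.5 ± 50.8 and 260.3 ± 33.7 TPM. Of the 13 tested genes of ATF4 and its targets, 5 were higher and 8 lower. At an unadjusted p under 0.05, 0 were higher and 1 lower (Trib3, 7.86 ± 1.75 and 10.9 ± 1.22 TPM), beside 3.45% and 9.99% of all tested genes. The median of this list was -0.04. It turned to 0.10 after the GC and length correction, with 8 higher and 5 lower. There 2 were higher and 0 lower at an unadjusted p under 0.05, beside 6.81% and 5.85% of all tested genes. The list's median was 0.05 with median-of-ratios scaling (7 and 6) and 0.10 without the second older library (9 and 4).

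Genes of ER-associated degradation, which sends misfolded proteins to the proteasome, had a median of -0.21, with 2 higher and 12 lower, and 4 lower at an unadjusted p under 0.05, where 33.8% of all tested genes were higher and 9.99% were lower at that p. With median-of-ratios scaling the median was -0.11, with 6 higher and 8 lower, as it was after the GC and length correction. Os9, a lectin that recognises misfolded glycoproteins, lay at 69.8 ± 10.8 TPM in the older libraries and 100.5 ± 12.02 TPM in the younger (SD, n = 3). Syvn1, the ubiquitin ligase HRD1, lay at 18.1 ± 4.10 and 25.9 ± 1.65 TPM, Vcp, the ATPase that extracts proteins from the ER, at 148 ± 19.1 and 189 ± 15.2 TPM, and Derl1 at 42.1 ± 2.01 and 49.9 ± 2.19 TPM. In these 4 genes, named in order of unadjusted p, all 18-month libraries lay below all 8-month libraries. Limma's adjusted p was between 0.195 and 0.328. Of the 14 tested genes of the list, the ages did not overlap in 0 higher and 5 lower, beside 4.48% and 14.2% of all tested genes.

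The glycoprotein folding cycle, in which the lectins Calr and Canx take part, had a median of -0.22 with 2 higher and 9 lower. Of these 0 and 4 had an unadjusted p under 0.05, beside 3.45% and 9.99% of all tested genes. After the GC and length correction the median was -0.07 with 5 higher and 6 lower. There 2 were higher and 0 lower at an unadjusted p under 0.05, beside 6.81% and 5.85% of all tested genes. The lower values given next therefore hold for the uncorrected levels. Prkcsh, the beta subunit of glucosidase II, lay at 32.9 ± 3.66 and 43.6 ± 4.97 TPM at 18 and 8 months (SD, n = 3), Edem2 at 25.2 ± 2.59 and 33.8 ± 5.93 TPM, and the cargo lectins Lman1 at 53.5 ± 2.57 and 62.3 ± 1.92 TPM and Lman2 at 56.6 ± 1.84 and 66.0 ± 0.903 TPM. The other disulfide enzymes had a median of -0.11, with 5 higher and 11 lower. Pdia5, a further isomerase, lay at 33.1, 28.7 and 28.5 TPM in the older libraries and 48.7, 39.5 and 46.1 TPM in the younger, the reverse of Pdia4 and Pdia6 (limma adjusted p = 0.155). Erp44 lay at 32.5 ± 2.33 and 40.2 ± 0.823 TPM and Ero1l, an oxidase that recharges the isomerases, at 18.2 ± 3.59 and 23.8 ± 0.844 TPM.

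The list of BiP partners and other ER cofactors had a median of -0.15, with 2 higher and 11 lower. Cnpy3, which had the smallest p of the list, lay at 39.9 ± 5.65 and 50.4 ± 4.05 TPM at 18 and 8 months (SD, n = 3), with overlapping ages. Creld2 lay at 36.1 ± 3.27 and 42.5 ± 1.07 TPM, Dnajc1, a DnaJ cochaperone in the ER membrane, at 13.2 ± 2.31 and 16.7 ± 1.76 TPM, and Hyou1, the exchange factor of BiP, at 12.8 ± 1.92 and 15.2 ± 0.482 TPM. In the translocation list, 4 were higher and 11 lower with a median of -0.04, which was 0.05 with median-of-ratios scaling (8 and 7). Sec11c, a catalytic subunit of the signal peptidase, lay at 47.7 ± 2.02 and 59.3 ± 1.24 TPM, and Sec61b, a subunit of the translocon, at 166 ± 11.9 and 199 ± 4.19 TPM. The prolyl isomerases and the collagen chaperone had 3 higher and 6 lower with a median of -0.11, which was 0.07 without both first libraries (6 and 3), and Fkbp9 lay at 33.5 ± 2.91 and 46.0 ± 4.46 TPM. The ER calcium list had 3 higher and 5 lower with a median of -0.09, and its unadjusted p was under 0.05 in 0 genes. After the GC and length correction it had 6 higher and 2 lower, with a median of 0.18. Of its genes 3 were then higher and 0 lower at an unadjusted p under 0.05, beside 6.81% and 5.85% of all tested genes. Its median was 0.0034 without the second older library, 0.0026 without the first younger and 0.012 without the second younger, so no direction is given. The chaperones outside the ER had 3 higher and 11 lower with a median of -0.15, which became 0.02 without the second 18-month library and 0.03 without the first 8-month library. Bag3, a cofactor of Hsp70, lay at 80.6 ± 11.7 and 107 ± 4.35 TPM.

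**Figure D5:**
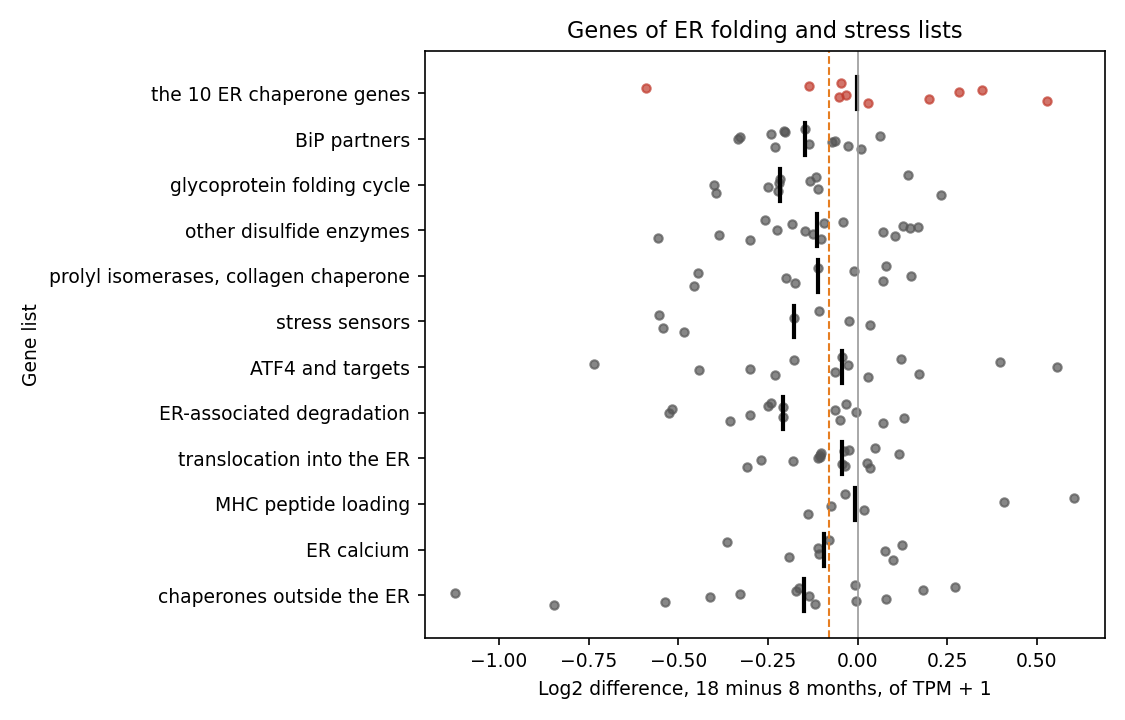
Log2 difference between 18 and 8 months on the log2(TPM + 1) scale (horizontal axis) for the tested genes of each list (rows), with the list's median as a black bar and the median of all tested genes dashed. The 10 genes of the top row (red) spread from -0.59 to 0.53 around a median of -0.00067, and the medians of the other lists lie between -0.22 and -0.0077.

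Genes that share the full ERSE letters had differences of both signs in the main fit, the sole setting read for this set. In it 0 of them passed limma's adjusted threshold, so no direction is given. Outside the members, 32 genes held these letters. Of the 13 that were tested 6 were higher and 7 lower, where 33.8% of all tested genes were higher. Of these 13, 0 passed limma's adjusted threshold, beside 0.0235% of all tested genes. At an unadjusted p under 0.05, 0 were higher and 1 lower, beside 3.45% and 9.99% of all tested genes. The ages did not overlap in 0 higher and 3 lower genes, beside 4.48% and 14.2% of all tested genes. Syvn1 and Creld2 are among these 3. Among the members, Calr, Hsp90b1 and Pdia6 hold the letters and had higher means at 18 months, while Hspa5 and Canx hold them and had mean TPM of 0.968 and 1.02 times the 8-month level.

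The sorted cells carried endothelial markers, with the 8 listed genes summing to 5666 to 6416 TPM in the older and 6763 to 7023 TPM in the younger libraries. Of these 8, 1 was higher and 7 lower, with a median log2 difference of -0.17 (4 and 4 with median-of-ratios scaling). Markers of other cell types were present too. Airway secretory genes summed to 5637 to 13083 TPM and 5972 to 7805 TPM, led by Scgb1a1. Of the 6 tested, 5 were higher and 1 lower, with a median of 0.72 (-0.06 without both first libraries, 3 and 3). Alveolar epithelial genes summed to 4342 to 7074 TPM and 5383 to 12992 TPM, led by Sftpc. Of the 8 tested, 1 was higher and 7 lower, with a median of -0.33 (-0.02 without the third younger library, 4 and 4). Of the macrophage and dendritic markers 11 of 11 tested had higher means in the older libraries, with a median log2 difference of 0.66. That median was 0.37 without the first younger library (10 of 11 higher), 1.11 without the third younger library and 0.25 without both first libraries (8 higher and 3 lower). The list summed to 935 to 1742 TPM and 629 to 1811 TPM, T and NK cell markers to 11.1 to 17.05 and 10.7 to 22.9 TPM, fibroblast markers to 20.7 to 32.0 and 35.1 to 55.1 TPM, and smooth muscle and pericyte markers to 14.3 to 17.8 and 22.3 to 29.5 TPM. The summed endothelial, fibroblast and smooth muscle markers did not overlap between the ages. Of the 7 tested fibroblast markers, 0 were higher and 7 lower, with a median of -0.53 (-0.36 after the GC and length correction, 0 and 7). Of the 5 tested smooth muscle and pericyte markers, 0 were higher and 5 lower, with a median of -0.70 (-0.54 after that correction, 0 and 5). No listed marker in the table was at 0 in all libraries. Secretory epithelial cells use the same ER genes, and the part of these and the other listed cell types in the members' values was not tested. In such bulk samples, fewer cells of a type and less RNA per cell cannot be told apart. Over all genes, 1 rose and 2 fell, a split that was 8 and 8 with median-of-ratios scaling and 9 and 7 with quantile normalization.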

How the data were processed

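RNA of sorted lung endothelial cells was taken with a PicoPure kit, libraries were made from 10 ng with the SMARTer Ultra Low kit and sequenced as paired ends of 100 bp, per the labels' protocols. The values deposited by the authors are TPM per Ensembl gene, and the submitters' processing notes name kallisto and mm10. Its version, transcript set and summing to genes were not given in the sources used. Symbols, positions, length and GC content came from GENCODE M21 on GRCm38, the assembly called mm10, which held 24298 of the 24520 identifiers. R 4.3.3 and limma 3.58.1 fitted log2(TPM + 1) with an intensity trend and age as the sole term, 2-sided, for genes whose mean reached 1 TPM. Log2 differences understate changes of low genes. TPM keep no depth, so no counting error is given, and 3 libraries per age limit the precision.

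Between 0% and 4.56% of the members' 31-base sequences also occur in transcripts of other genes, the most for Ddit3, for which GENCODE lists a second, overlapping gene with the same symbol that was not used here. Strand is not marked by this kit, and reads of genes overlapping on opposite strands cannot be told apart.

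The members, the gene lists and the tests were chosen with earlier results of these data known. All members were named, and of each pathway list none to 4 genes, in order of unadjusted p, with all genes of peptide loading and of the stress sensors open to naming. Atf4, Mars, Mzb1, Jchain, Hspa8, Hsp90aa1, Hspa1a, Jun and Dusp1 were named outside this rule after their values were seen. Alternatives were pseudocounts of 0.1 and 0.5, no filter, a mean of at least 5 TPM, 3 scalings, no trend, library weights, the replicate block, a loess correction for GC content and length (span 0.75) with and without the block, protein-coding genes alone, each library left out and, added later, both first libraries left out.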

Additional observations from a re-analysis of the deposited data

How the results depend on the processing

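Over 20 alternatives Calr, Hsp90b1, Pdia4 and Pdia6 kept higher and P4hb and Xbp1 lower values at 18 months. The number of members past limma's adjusted threshold was 0 in each but library weights, where it was 1 (Calr). Without 1 library in turn it was 0. The number of all genes called was 3 (1 higher and 2 lower), and it was 0 with no filter (669 higher and 1534 lower counted by unadjusted p alone), 94 with library weights, 16 with scaling by median of ratios, 28 when protein-coding genes alone were tested, 16 after quantile normalization, 0 without both first libraries (354 higher and 1707 lower unadjusted) and 0 to 2 without 1 library in turn. The cause was not tested.

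With the replicate block the number of genes called was 0 (422 higher and 1023 lower unadjusted), and it was 0 with the block and the correction for GC content and length. Same-numbered libraries correlated at -0.0118, -0.0904 and 0.0574 in their deviations, and 2 of 6 correlated best with their own number. By this measure no pairing by number was detected, and 3 libraries per age are too few to settle it.

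The members' median of -0.00067 was 0.097 with median-of-ratios scaling, 0.12 without both first libraries and -0.026 to 0.18 without 1 library in turn. Signs turned for Hspa5 (0.045 with median-of-ratios scaling, 0.011 with the GC and length correction and 0.011 with that and the block, -0.19 to 0.057 without 1 library in turn), Pdia3 (0.066 with median-of-ratios scaling, 0.0043 after quantile normalization, 0.050 with library weights, 0.019 with the GC and length correction and 0.019 with that and the block, -0.096 to 0.0039 without 1 library in turn), Ddit3 (0.050 with median-of-ratios scaling, 0.054 after quantile normalization, 0.17 without both first libraries, -0.27 to 0.27 without 1 library in turn) and Canx (-0.0091 to 0.086 without 1 library in turn). Depth is unknown, so it could not be related to any value.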
